A study of Mus musculus with 11 samples.

Results

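The colon epithelium of Vil-Ogt KO mice was compared with that of WT mice across all named genes of the deposited colon table. The comparison rests on 6 of the 11 libraries of the series, 3 from Vil-Ogt KO colon and 3 from WT colon, and the other 5 come from the ileum. Ogt encodes O-GlcNAc transferase (OGT), and the question addressed is how the transcriptome differs where the epithelium has lost this enzyme. Vil-Ogt KO mice, bred from floxed Ogt mice on the C57BL/6 background and Villin-Cre mice, carry floxed Ogt alleles and a Cre recombinase. It is driven by the Villin promoter, which is active in the epithelium of small and large intestine. The strain background of the Villin-Cre mice is not given in the sources used here. WT mice were their comparators, and whether the WT mice carried Cre or the floxed alleles is not given either. All mice were 10 weeks old, and the study used males unless it said otherwise. It also reports mucosal injury in the colon of male Vil-Ogt KO mice at 10 weeks. Direct effects of the enzyme's loss were not separated from effects of such injury. Intestinal epithelial cells (IECs) were shaken off the tissue in EDTA, a procedure that also releases the lymphocytes lodged between epithelial cells, and equal amounts of RNA were pooled for library construction, so how many mice a library holds is unknown. The segment of the colon that was taken is not stated either. The deposited table gives 1 value per genotype and gene, in log2 FPKM (fragments scaled to transcript length and to the mapped reads of the library), and none per library. There is therefore no spread between libraries, no depth and no test behind any value below, and a value of 1 genotype can rest on any of its 3 libraries. Differences are given as log2 FPKM in Vil-Ogt KO minus log2 FPKM in WT.

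OGT attaches single N-acetylglucosamine residues to serine and threonine of nuclear, cytosolic and mitochondrial proteins, and O-GlcNAcase, encoded by Mgea5, removes them. The donor sugar is made by the hexosamine pathway from glucose, glutamine, acetyl-CoA and UTP, and many transcription factors and chromatin proteins carry the modification. The colon epithelium is made of absorptive colonocytes, mucus-secreting goblet cells, deep crypt secretory cells that border the stem cells, enteroendocrine cells and tuft cells, all renewed from stem cells at the crypt base.

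Of 18122 loci in the table, 13307 carried a gene name, and they gave 12831 genes after 1 locus was kept per name. At a mean of at least 1 FPKM over both genotypes, and with genes listed at 0 set apart, 11346 genes could be compared. More than 2-fold higher in Vil-Ogt KO colon were 571 genes (5.03%), and more than 2-fold lower were 747 (6.58%). These shares are the background for the list counts below. Both were larger among scarce genes, at 12.4% and 15.2% from 1 to 3 FPKM. Past 8-fold the balance was the other way round, with 70 genes higher and 42 lower. The bulk of the transcriptome stood close to WT. The median log2 difference was -0.05, the middle 50% of genes lay between -0.40 and 0.28, and 40.7% of genes differed by less than 1.2-fold. The share of genes more than 2-fold apart depended on the level, at 44.5% under 1 FPKM, 27.6% from 1 to 3 FPKM, 7.10% from 10 to 30 FPKM and 3.19% over 1000 FPKM, so a 2-fold difference of a scarce transcript is far more common here than that of an abundant one. Among the 94 genes over 1000 FPKM only 3 were more than 2-fold apart.

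**Figure D1:**
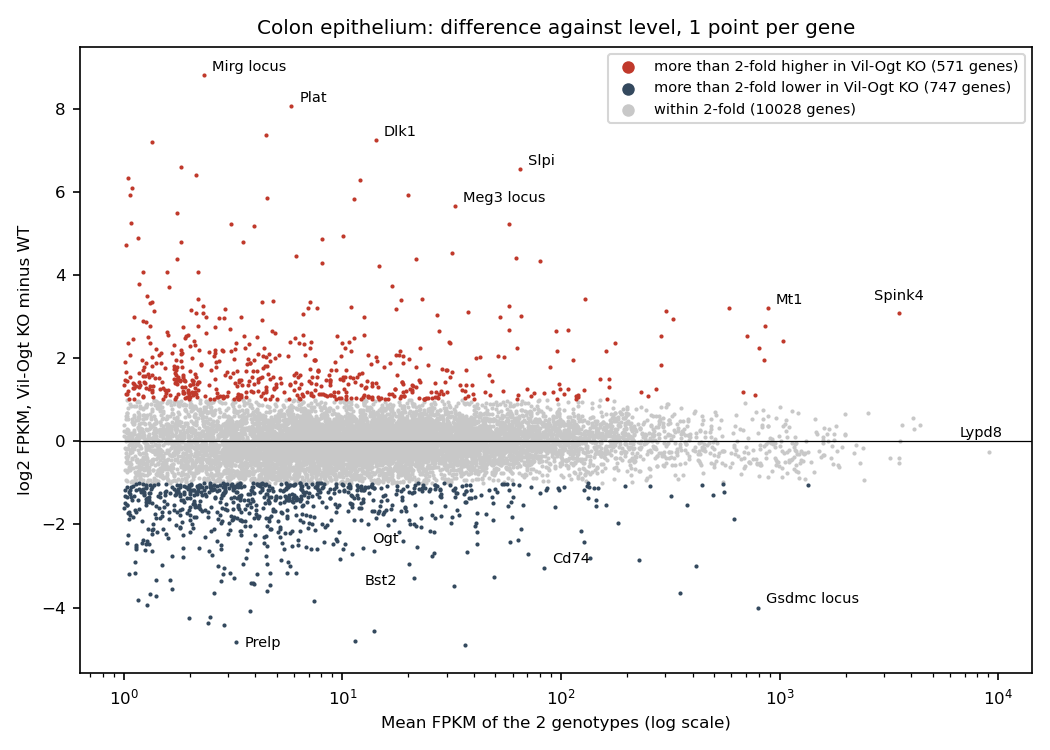
Each point is 1 gene, with the mean FPKM of Vil-Ogt KO and WT colon on a log axis across and the log2 difference (Vil-Ogt KO minus WT) upwards. Red points are the 571 genes more than 2-fold higher in Vil-Ogt KO and dark points the 747 more than 2-fold lower, and the cloud narrows from the scarce genes on the left to the abundant ones on the right.

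Ogt was lower in Vil-Ogt KO colon, at 8.17 FPKM in Vil-Ogt KO and 32.4 FPKM in WT, a 3.97-fold difference. The value covers the whole gene, and which cells hold the remaining transcript was not tested. Mgea5 stood lower as well, at 9.92 FPKM in Vil-Ogt KO and 35.8 FPKM in WT. The rest of the 13 measured genes of O-GlcNAc cycling and the hexosamine pathway stayed within 2-fold of WT, except Uap1l1, a relative of the last enzyme of the pathway, at 29 FPKM in Vil-Ogt KO and 12.4 FPKM in WT. The rate-limiting Gfpt1 differed by 0.15 on the log2 scale. All 32 chromatin partners of OGT were within 2-fold, among them Hcfc1, a host cell factor that OGT itself cleaves, with 29.9 FPKM in Vil-Ogt KO and 16.2 FPKM in WT, and Ezh2, the methyltransferase of Polycomb, with 8.4 FPKM in Vil-Ogt KO and 16.2 FPKM in WT. All 18 housekeeping genes were within 2-fold too, with a median log2 difference of 0.10 and a range from -0.98 (Tubb5) to 0.80 (Hprt).

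The label of epithelium was checked on its markers. All 19 measured pan-epithelial genes were well expressed in both genotypes and within 2-fold, with Epcam at 942 FPKM in Vil-Ogt KO and 1097 FPKM in WT and Cdh17, an intestinal cadherin, at 380 FPKM in Vil-Ogt KO and 302 FPKM in WT. These genes do not separate colon from ileum, and the colonocyte, ileal and regional genes that do are given further on. Markers of other cells were also looked at. The 20 measured genes of T cells and intraepithelial lymphocytes summed to 40.8 FPKM in Vil-Ogt KO and 88.3 FPKM in WT. Of 13 compared members 0 were more than 2-fold higher and 4 lower (30.8%, beside 6.58% over all genes). Fewer lymphocytes and less RNA per lymphocyte cannot be told apart in these bulk values. Of 9 measured macrophage and dendritic cell genes 0 of 5 compared were more than 2-fold apart, and their sum of 539 FPKM in Vil-Ogt KO and 572 FPKM in WT lay mostly in Cd68, Ctss and Cd14, while C1qa and Lyz2 were near or under 1 FPKM. The 10 measured stromal, endothelial and muscle genes summed to 20.5 FPKM in Vil-Ogt KO and 21.5 FPKM in WT, with 1 of 5 compared higher and 1 lower. Of 15 B and plasma cell genes 2 were measured and 1 could be compared. This was Ms4a1, which encodes CD20, at 4.56 FPKM in Vil-Ogt KO and 0.678 FPKM in WT. A second entry at the same coordinates, named for Ms4a1 and Ms4a5, was at 1.54 FPKM in Vil-Ogt KO and 0.785 FPKM in WT, less than 2-fold apart. Red cell transcripts stood higher in Vil-Ogt KO, since the locus of the haemoglobin gene Hba-a1 was at 42.2 FPKM in Vil-Ogt KO and 3.94 FPKM in WT, and Alas2, the haem enzyme of the erythroid lineage, at 2.45 FPKM in Vil-Ogt KO and 0.238 FPKM in WT. Of 16 neutrophil genes 4 were in the table and 1 could be compared, Il1b. S100a8 was at 4.76 FPKM and S100a9 at 2.60 FPKM in Vil-Ogt KO, and both were listed at 0 in WT. Of 9 genes in all that averaged at least 1 FPKM and were listed at 0 in a genotype, Defb39 (2.95 FPKM) and Erc2 (3.66 FPKM) also had values in Vil-Ogt KO alone, and AF357399 had 64.9 FPKM in WT alone.

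Among the 15 genes with the highest log2 difference, 5 encode secreted proteases, their inhibitors or chemokines, 4 are neighbours in 1 imprinted region, and several are scarcely expressed in WT. Plat, tissue plasminogen activator, was at 11.6 FPKM in Vil-Ogt KO and 0.0433 FPKM in WT. Slpi, the secretory leukocyte protease inhibitor, was the most abundant of the 15, at 128 FPKM in Vil-Ogt KO and 1.37 FPKM in WT. Prss22, a serine protease of epithelia, was at 2.66 FPKM in Vil-Ogt KO and 0.0179 FPKM in WT. The neutrophil chemokines Cxcl2 and Cxcl5 had log2 differences of 6.35 and 5.87. Ghrl, which encodes the hormone ghrelin, was at 39.1 FPKM in Vil-Ogt KO and 0.637 FPKM in WT. The locus of Igf2bp1, an RNA-binding protein of fetal tissues that binds Igf2 mRNA, was at 23.8 FPKM in Vil-Ogt KO and 0.301 FPKM in WT. Il5ra, a chain of the interleukin 5 receptor, was at 2.1 FPKM in Vil-Ogt KO and 0.0344 FPKM in WT, and the secretoglobins Scgb1b3 and Scgb2b20 had log2 differences of 6.42 and 6.10. Most of these genes held under 1 FPKM in WT, where fold values are large and imprecise, and with 1 added to each FPKM the log2 differences of Plat, Slpi and Cxcl2 were 3.60, 5.77 and 1.58.

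At the other end, the 15 lowest log2 differences ran between -3.67 and -4.90. The Gsdmc locus, which joins Gsdmc to its paralogs Gsdmc2, Gsdmc3 and Gsdmc4, pore-forming gasdermins, was by far the most abundant of them, at 93.1 FPKM in Vil-Ogt KO and 1489 FPKM in WT. Its 4 paralogs share a locus, so the value cannot be given to 1 of them. Pla2g4c, a cytosolic phospholipase, was at 0.79 FPKM in Vil-Ogt KO and 22 FPKM in WT. Ifi27l2a, an interferon-induced gene, was at 1.13 FPKM in Vil-Ogt KO and 26.9 FPKM in WT. Prelp, a matrix proteoglycan, was at 0.221 FPKM in Vil-Ogt KO and 6.32 FPKM in WT, and Tfpi, the inhibitor of the tissue factor pathway, at 0.199 FPKM in Vil-Ogt KO and 3.78 FPKM in WT. Rdx, which encodes radixin, a linker of actin to the membrane, was at 0.252 FPKM in Vil-Ogt KO and 4.72 FPKM in WT. Paip2b, a repressor of translation that binds poly(A)-binding protein, was at 0.959 FPKM in Vil-Ogt KO and 13.8 FPKM in WT. Enox2, on the X chromosome as Ogt is, was at 0.42 FPKM in Vil-Ogt KO and 7.16 FPKM in WT. Klk15, Tmprss13, Ctf1 and Nacad were scarce in WT, between 2.16 and 2.62 FPKM, and lay under 0.2 FPKM in Vil-Ogt KO. The loci of Apba3 and of Mettl7a2 also belong to the 15, but each carries the name of another transcript besides, so their values are uncertain.

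**Figure D2:**
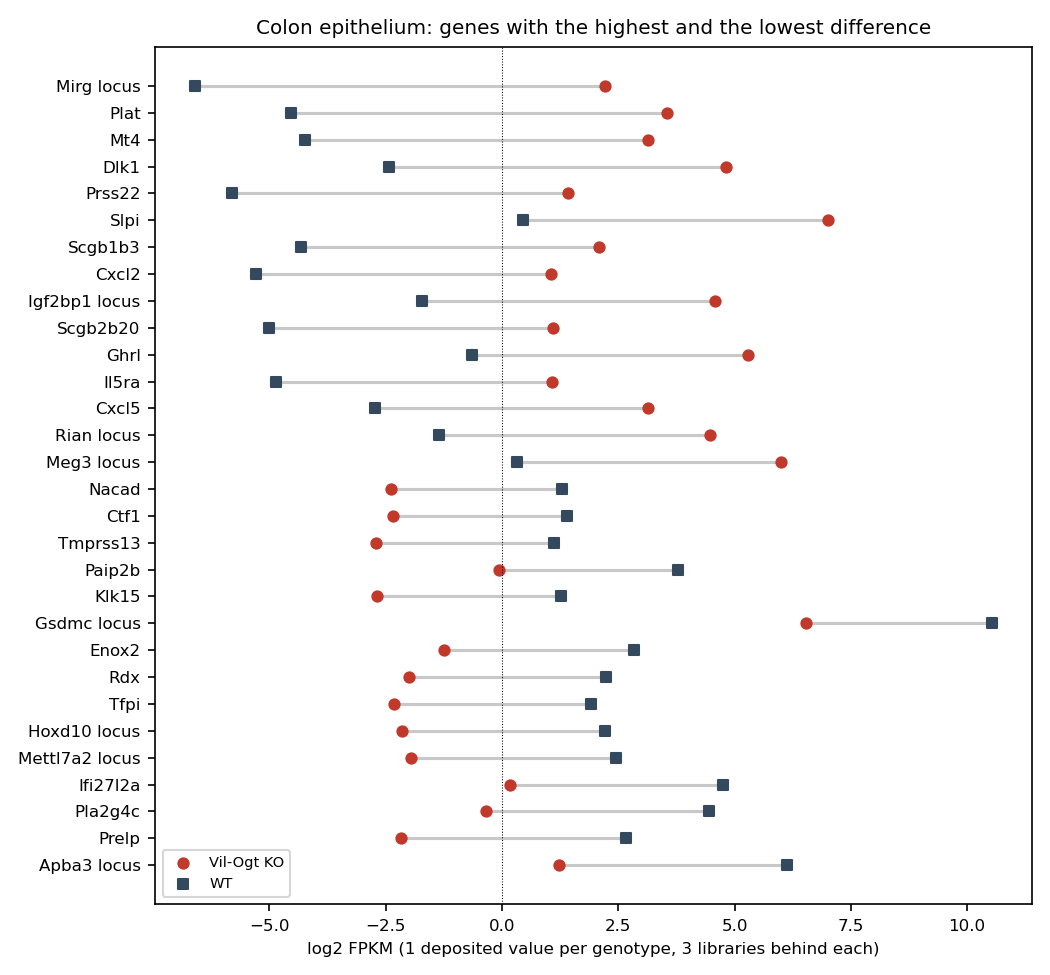
Rows are the 15 genes with the highest and the 15 with the lowest log2 difference at a mean of at least 1 FPKM, and the axis is log2 FPKM with 1 deposited value per genotype (circles, Vil-Ogt KO, and squares, WT). The Gsdmc locus is the only one of the 30 above 10 in WT, and most of the upper 15 lie under 0 in WT.

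Genes more than 2-fold apart were also looked at by position. Runs of at least 4 such genes on the same side, with gaps of less than 200 kb, numbered 5 higher and 16 lower in Vil-Ogt KO, a rule chosen after the values were seen. In 10 of the 16 lower runs and 1 of the 5 higher ones at most 50% of the compared genes inside were apart, as in a stretch of chromosome 10 with 8 of 37, where 36 of the genes share the coordinates of 1 merged locus. The runs described here were picked as those in which most genes inside lay on the same side. The foremost run was the imprinted Dlk1 to Mirg region on chromosome 12 (chr12:109452822-109749457, mm10). It is a region in which paternal Dlk1, a Notch-like membrane protein of fetal tissues, and the maternal noncoding RNAs Meg3, Rian and Mirg are expressed from opposite alleles in mice. All 4 compared loci of the run were higher. Dlk1 was at 28.2 FPKM in Vil-Ogt KO and 0.186 FPKM in WT. The Meg3 locus was at 64 FPKM in Vil-Ogt KO and 1.26 FPKM in WT, that of Rian at 22.2 FPKM in Vil-Ogt KO and 0.39 FPKM in WT and that of Mirg at 4.63 FPKM in Vil-Ogt KO and 0.0103 FPKM in WT. Of the other 14 imprinted genes compared, 2 were more than 2-fold higher, Phlda2 (12.9 FPKM in Vil-Ogt KO and 4.63 FPKM in WT) and Dcn (3.2 FPKM in Vil-Ogt KO and 1.19 FPKM in WT), and 12 were within 2-fold, such as Igf2r (16.8 FPKM in Vil-Ogt KO and 15.9 FPKM in WT) and Gnas (508 FPKM in Vil-Ogt KO and 519 FPKM in WT). In the ileum the Meg3 locus stayed under the minimum of 1 FPKM, at 0.920 FPKM in Vil-Ogt KO and 0.0988 FPKM in WT, and Dlk1 had no value among the named loci there.

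The noncoding loci of this region host microRNAs, and the names of the Meg3, Rian and Mirg loci include Mir770, Mir370, Mir485, Mir412, Mir369 and Mir410. The table does not measure mature microRNAs. RefSeq (GRCm38.p6) lists 11 mature microRNAs for these 6 genes, from both arms of most, and whether any is made here was not tested. Only the 3' arm, which is listed for each of the 6, is shown, with the seed (bases 2 to 8) in capitals:
mmu-miR-770-3p: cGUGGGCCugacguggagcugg
mmu-miR-370-3p: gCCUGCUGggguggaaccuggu
mmu-miR-485-3p: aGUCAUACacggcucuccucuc
mmu-miR-412-3p: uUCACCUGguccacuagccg
mmu-miR-369-3p: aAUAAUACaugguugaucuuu
mmu-miR-410-3p: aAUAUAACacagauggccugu
No seed is shared among the 6, and those of miR-369-3p and miR-410-3p are rich in A and U.

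The metallothioneins, small cysteine-rich proteins that hold zinc and copper, formed the second run (chr8:94137203-94180327, mm10), and all 4 were higher. Mt1 was at 1585 FPKM in Vil-Ogt KO and 172 FPKM in WT, and Mt2 at 545 FPKM in Vil-Ogt KO and 61.8 FPKM in WT. Mt3 was at 6.68 FPKM in Vil-Ogt KO and 1.97 FPKM in WT, and Mt4 at 8.88 FPKM in Vil-Ogt KO and 0.0533 FPKM in WT. In the list of iron, copper and zinc handling the other genes more than 2-fold higher were Steap4, a metalloreductase (11.2 FPKM in Vil-Ogt KO and 1.91 FPKM in WT), and Hmox1, the haem-degrading enzyme (5.31 FPKM in Vil-Ogt KO and 1.13 FPKM in WT). The zinc transporters Slc39a4 and Slc30a1 had log2 differences of 0.13 and 0.10, and the iron exporter Slc40a1 was lower, at 39.7 FPKM in Vil-Ogt KO and 80.4 FPKM in WT. The promoters of the 2 abundant members are shown because metallothionein genes are classic targets of metal-responsive transcription. They run over 250 bases before and 50 after the RefSeq start on the plus strand (GRCm38.p6, Mt1 at chr8:94178839-94179138 and Mt2 at chr8:94172368-94172667), with the metal response cores TGCACNC and TGCGCNC, read on both strands, in capitals:
Mt1: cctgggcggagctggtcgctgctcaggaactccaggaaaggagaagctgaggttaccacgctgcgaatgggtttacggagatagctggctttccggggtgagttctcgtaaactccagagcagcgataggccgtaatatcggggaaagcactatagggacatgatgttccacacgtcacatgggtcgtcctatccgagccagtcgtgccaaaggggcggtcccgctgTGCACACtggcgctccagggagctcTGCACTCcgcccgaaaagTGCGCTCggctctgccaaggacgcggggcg
Mt2: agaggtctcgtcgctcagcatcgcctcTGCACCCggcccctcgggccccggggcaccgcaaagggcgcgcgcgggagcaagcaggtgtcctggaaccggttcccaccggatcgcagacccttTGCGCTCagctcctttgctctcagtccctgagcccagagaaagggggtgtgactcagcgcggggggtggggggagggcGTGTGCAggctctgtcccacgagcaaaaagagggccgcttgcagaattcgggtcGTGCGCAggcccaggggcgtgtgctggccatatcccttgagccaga
The Mt1 window holds 3 matches and that of Mt2 4, and the windows of Mt3 and Mt4 also hold at least 1, a search added after the values were seen. These short letters occur in 28.2% of 27025 genes with a RefSeq promoter, so a match marks no site of binding.

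On chromosome 5 (chr5:90759298-91148434, mm10) 4 of 6 compared genes were higher, the chemokines Cxcl5 and Cxcl2 and the EGF receptor ligands Ereg and Areg. Ereg, epiregulin, was at 4.66 FPKM in Vil-Ogt KO and 1.03 FPKM in WT, and Areg, amphiregulin, at 54.2 FPKM in Vil-Ogt KO and 24.8 FPKM in WT. Between them Pf4 and Mthfd2l differed by -0.21 and -0.02 on the log2 scale. Among the runs that were lower, the Ces1 carboxylesterases on chromosome 8 had all of 4 genes below WT, with Ces1g at 20.5 FPKM in Vil-Ogt KO and 106 FPKM in WT and Ces1d at 6.41 FPKM in Vil-Ogt KO and 37.5 FPKM in WT. In a cluster of zinc finger genes on chromosome 13 all 13 compared genes had a negative difference and 8 were more than 2-fold lower, with Zfp738 lowest at 0.337 FPKM in Vil-Ogt KO and 2.66 FPKM in WT. Of 242 Zfp genes 3 were higher and 25 lower (10.3%, beside 6.58% over all genes and 15.2% and 8.60% over genes of 1 to 3 and 3 to 10 FPKM), with a median log2 difference of -0.20. In the class II region of the major histocompatibility complex (MHC) on chromosome 17, 6 of 7 genes were lower. No chromosome carried the differences by itself. Chromosome X had 4.59% of its genes higher and 3.98% lower, and chromosome 7 the largest share lower among the autosomes, at 9.38%.

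**Figure D3:**
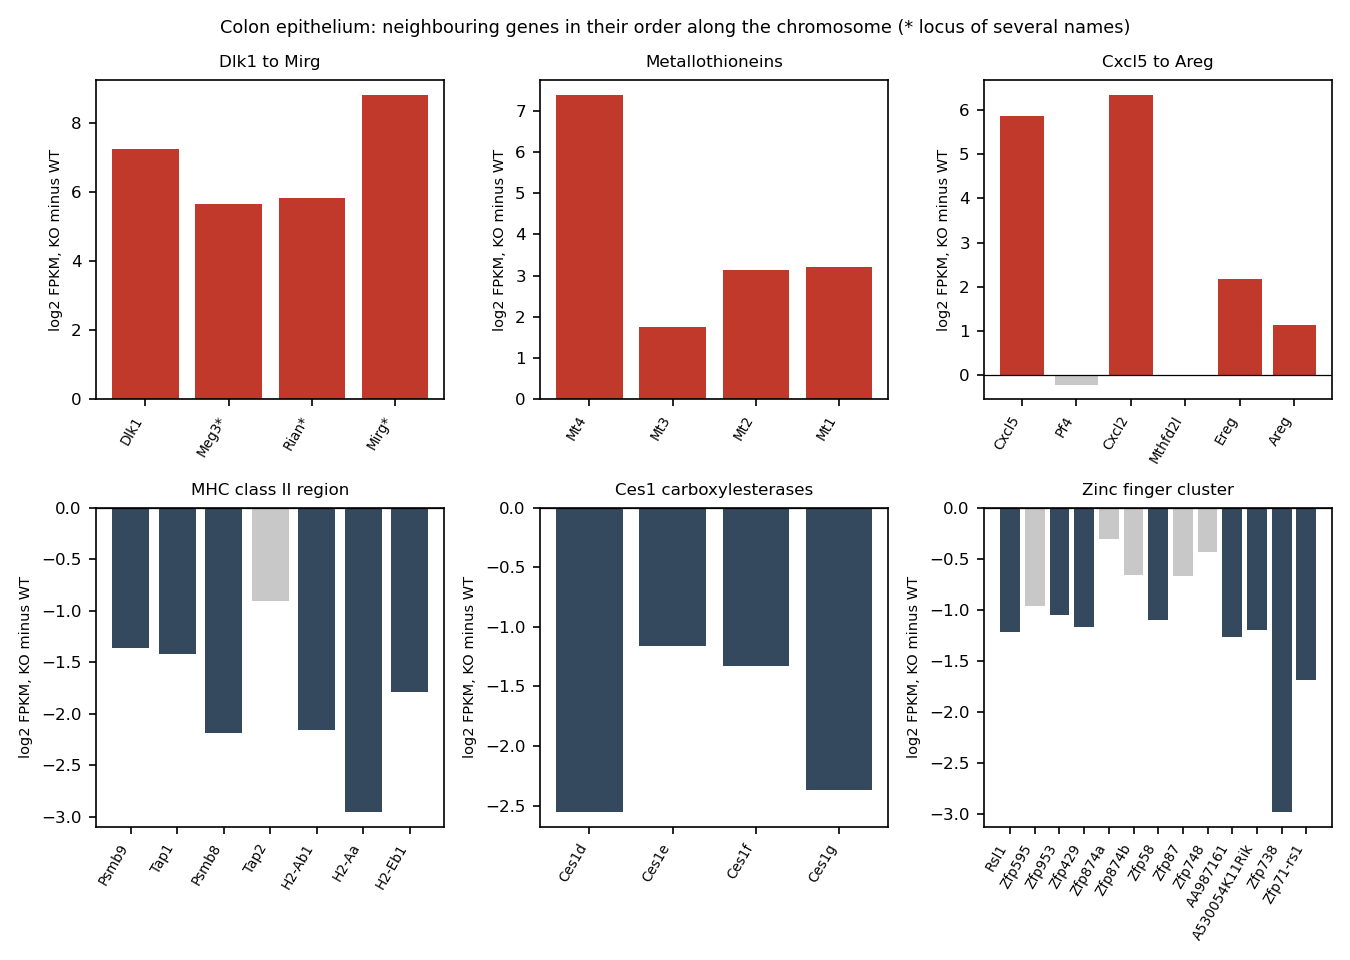
Bars give the log2 difference (Vil-Ogt KO minus WT) of each compared gene in 6 runs of neighbouring genes, in their order along the chromosome, red where more than 2-fold higher, dark where more than 2-fold lower and grey between. All 4 loci from Dlk1 to Mirg and all 4 metallothioneins are higher, and no gene of the MHC class II, Ces1 and zinc finger panels lies above 0.

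The largest group below WT was that of interferon-stimulated genes, the antiviral programme switched on by interferon receptors. Of 50 compared members 37 were more than 2-fold lower and 0 higher, with a median log2 difference of -1.42, against 6.58% lower and a median of -0.05 over all genes. Ifi44, a marker of the response, was at 0.779 FPKM in Vil-Ogt KO and 8.57 FPKM in WT. Bst2, tetherin, which holds budding virus at the cell surface, was at 3.92 FPKM in Vil-Ogt KO and 38.6 FPKM in WT. Oas2, a sensor of double-stranded RNA, was at 0.49 FPKM in Vil-Ogt KO and 5.06 FPKM in WT, and Isg15, a ubiquitin-like modifier, at 15.9 FPKM in Vil-Ogt KO and 65.3 FPKM in WT. The guanylate-binding proteins Gbp2 and Gbp3 had log2 differences of -2.10 and -2.74, and the transcription factor Irf7 one of -1.17. Isg20 and Oasl1 were the only members with positive differences, 0.49 and 0.13. The interferon receptors themselves stood near WT, with differences of 0.05 (Ifnar1), -0.05 (Ifnar2), -0.04 (Ifngr1) and 0.45 (Ifnlr1). Among sensors and adaptors, Mavs and Tlr3 lay below WT by less than 2-fold (-0.79 and -0.99), and Tmem173, the adaptor STING, was at 1.13 FPKM in Vil-Ogt KO and 4.44 FPKM in WT. Lymphocyte transcripts were lower in the same samples (summed 40.8 FPKM in Vil-Ogt KO and 88.3 FPKM in WT), and their part in the lower interferon-stimulated genes was not tested.

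Promoters of interferon-stimulated genes commonly hold an interferon response element. Its core, searched as GAAANNGAA on both strands, occurred in the RefSeq promoters of 20 of 37 members that could be matched (54.1%), beside 9.76% of all 27025 genes. The 4 members with the lowest differences among those with a match are printed, with every match in capitals, 250 bases before to 50 after the start on the gene's own strand (GRCm38.p6). Ifi44 is at chr3:151749861-151750160 on the minus strand, Bst2 at chr8:71537423-71537722 on the minus strand, Trim30a at chr7:104446076-104446375 on the minus strand and Gbp3 at chr3:142559794-142560093 on the plus strand:
Ifi44: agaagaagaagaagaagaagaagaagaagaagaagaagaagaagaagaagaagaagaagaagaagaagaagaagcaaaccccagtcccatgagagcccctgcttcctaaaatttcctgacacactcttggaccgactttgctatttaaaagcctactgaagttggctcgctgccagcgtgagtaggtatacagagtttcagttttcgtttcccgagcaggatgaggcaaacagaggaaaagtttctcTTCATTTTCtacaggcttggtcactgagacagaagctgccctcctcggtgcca
Bst2: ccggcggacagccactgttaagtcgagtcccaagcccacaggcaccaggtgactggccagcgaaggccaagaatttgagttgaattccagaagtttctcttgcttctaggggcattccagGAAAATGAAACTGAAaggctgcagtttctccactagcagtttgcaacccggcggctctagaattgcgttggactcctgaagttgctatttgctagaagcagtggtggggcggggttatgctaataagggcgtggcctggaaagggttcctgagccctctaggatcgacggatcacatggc
Trim30a: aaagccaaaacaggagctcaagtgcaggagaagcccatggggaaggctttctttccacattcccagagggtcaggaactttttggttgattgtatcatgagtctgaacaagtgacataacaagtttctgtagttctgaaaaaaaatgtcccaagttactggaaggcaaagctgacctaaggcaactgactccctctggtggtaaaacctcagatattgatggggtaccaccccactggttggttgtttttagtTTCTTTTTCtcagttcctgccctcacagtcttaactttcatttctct
Gbp3: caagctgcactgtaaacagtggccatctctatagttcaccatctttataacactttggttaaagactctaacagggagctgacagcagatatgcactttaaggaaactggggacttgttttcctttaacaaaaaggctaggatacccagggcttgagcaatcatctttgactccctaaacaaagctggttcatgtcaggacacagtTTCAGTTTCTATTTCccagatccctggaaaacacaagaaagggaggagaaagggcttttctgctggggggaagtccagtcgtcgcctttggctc
In Bst2 and Gbp3 the 2 matches overlap and form 1 stretch. Trim30a, an antiviral ubiquitin ligase, was at 1.15 FPKM in Vil-Ogt KO and 7.84 FPKM in WT, and Gbp3 at 0.66 FPKM in Vil-Ogt KO and 4.41 FPKM in WT. A match describes the letters in this window and says nothing of whether a factor binds there.

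Antigen presentation was lower as well (median log2 difference -0.91). Of 29 compared genes of MHC class I and II presentation 13 were more than 2-fold lower (44.8%, beside 6.58% over all genes) and 0 higher. Of 6 loci of class II, its invariant chain and its DM chaperones 4 were lower, of 11 class I heavy chain loci 3, and of the other 12 genes 6, a split made after the values were seen. The class II genes H2-Aa and H2-Ab1 were at 4.59 FPKM in Vil-Ogt KO and 35.5 FPKM in WT and at 9.19 FPKM in Vil-Ogt KO and 41.1 FPKM in WT, and the locus of Cd74, the invariant chain, at 18.1 FPKM in Vil-Ogt KO and 149 FPKM in WT. The inducible proteasome subunit Psmb8 was at 14.8 FPKM in Vil-Ogt KO and 67.6 FPKM in WT, the peptide transporter Tap1 at 10.2 FPKM in Vil-Ogt KO and 27.3 FPKM in WT, and Nlrc5, the activator of class I genes, at 0.54 FPKM in Vil-Ogt KO and 1.74 FPKM in WT. Among class I heavy chains the classical H2-K1 and the H2-D1 locus differed by -0.18 and -0.05, whereas the nonclassical H2-T3, H2-T23 and the H2-T22 locus were lower, with log2 differences of -1.14, -1.16 and -1.34. B2m, the light chain of class I, was at 626 FPKM in Vil-Ogt KO and 1136 FPKM in WT. The constitutive proteasome, by contrast, leaned upwards as a whole, with 0 of 41 genes more than 2-fold apart and a median of 0.25. Class II genes are also expressed by immune cells, of which Ptprc, a marker, was at 1.04 FPKM in Vil-Ogt KO and 1.58 FPKM in WT. The T cell and intraepithelial lymphocyte genes summed to 40.8 FPKM in Vil-Ogt KO and 88.3 FPKM in WT. Those of macrophages and dendritic cells summed to 539 FPKM in Vil-Ogt KO and 572 FPKM in WT. The part of such cells in the difference was not tested.

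Many goblet cell genes were above WT. Of 27 compared, 14 were more than 2-fold higher (51.9%, beside 5.03% over all genes) and 1 lower, with a median log2 difference of 1.10, and their summed level was 17894 FPKM in Vil-Ogt KO and 7000 FPKM in WT. Spink4, a peptide of goblet and deep crypt secretory cells, had the largest gain in FPKM of all named genes, at 6295 FPKM in Vil-Ogt KO and 734 FPKM in WT. Zg16, a lectin that keeps bacteria off the epithelium, was at 1499 FPKM in Vil-Ogt KO and 220 FPKM in WT, and Tff3, the trefoil peptide, at 1342 FPKM in Vil-Ogt KO and 347 FPKM in WT. Muc2, the gel-forming mucin, was at 449 FPKM in Vil-Ogt KO and 125 FPKM in WT, and Fcgbp, a mucus protein bound to it, at 138 FPKM in Vil-Ogt KO and 39.9 FPKM in WT. The lineage factors stood above WT by less, with Spdef, which drives goblet maturation, at 43.1 FPKM in Vil-Ogt KO and 16.1 FPKM in WT and Atoh1, which sets the secretory fate, at 15 FPKM in Vil-Ogt KO and 8.28 FPKM in WT. Not every goblet product followed. The locus of Clca1, a mucus protease, was at 74 FPKM in Vil-Ogt KO and 191 FPKM in WT, and Retnlb, an antimicrobial resistin, at 30.7 FPKM in Vil-Ogt KO and 56.5 FPKM in WT. Neighbouring secretory genes split as well, since Reg4 of deep crypt secretory cells was at 1323 FPKM in Vil-Ogt KO and 276 FPKM in WT and Pla2g2a, a secreted phospholipase, at 112 FPKM in Vil-Ogt KO and 2.97 FPKM in WT, whereas Mptx1, a pentraxin, was at 52 FPKM in Vil-Ogt KO and 648 FPKM in WT. In the enzymes that build mucin-type O-glycans, 5 of 37 were higher (13.5%) and 4 lower (10.8%), beside 5.03% and 6.58% over all genes. B3gnt6, the core 3 synthase, was at 5.94 FPKM in Vil-Ogt KO and 1.25 FPKM in WT, and St6galnac1, which adds sialic acid, at 4.72 FPKM in Vil-Ogt KO and 1.88 FPKM in WT, while B3gnt7, which extends sulfated chains, was at 79.3 FPKM in Vil-Ogt KO and 209 FPKM in WT. Enzymes of N-glycosylation did not follow, as 0 of 38 were more than 2-fold apart.

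Of 28 enteroendocrine genes, 5 were higher (17.9%, beside 5.03% over all genes) and 0 lower. Ghrl led them, followed by Bex2 (7.46 FPKM in Vil-Ogt KO and 1.73 FPKM in WT) and Neurog3, the endocrine lineage factor (2.62 FPKM in Vil-Ogt KO and 1.06 FPKM in WT). Next came Sct, secretin (86.8 FPKM in Vil-Ogt KO and 40.2 FPKM in WT), and Cck, cholecystokinin (8.51 FPKM in Vil-Ogt KO and 4.11 FPKM in WT). The colonic hormones Pyy and Gcg differed by 0.30 and 0.27. Only 3 tuft cell genes of 13 measured reached 1 FPKM. The stem cell list had 0 of 21 genes higher and 4 lower (19%, beside 6.58% over all genes), with Lgr5, the marker of crypt base stem cells, at 0.328 FPKM in Vil-Ogt KO and 1.96 FPKM in WT, and Cd44, a Wnt target, at 5.78 FPKM in Vil-Ogt KO and 16.3 FPKM in WT, although Axin2 and Ascl2 differed by 0.06 and 0.21. Another of the 4 is the Clca1 locus already counted with the goblet genes, which also carries the name Clca2. Fzd7, a Wnt receptor of stem cells, was at 1.14 FPKM in Vil-Ogt KO and 4.99 FPKM in WT. The markers of surface colonocytes divided. Slc9a3, the apical sodium-proton exchanger, was at 152 FPKM in Vil-Ogt KO and 63.6 FPKM in WT, and Tmigd1, an adhesion protein of the mature epithelium, at 246 FPKM in Vil-Ogt KO and 86.2 FPKM in WT. Slc26a3, the chloride-bicarbonate exchanger, was at 126 FPKM in Vil-Ogt KO and 265 FPKM in WT, Aqp8, a water channel, at 85 FPKM in Vil-Ogt KO and 182 FPKM in WT, and Slc37a2, a sugar-phosphate transporter, at 5.31 FPKM in Vil-Ogt KO and 59.3 FPKM in WT.

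Genes of the ileal enterocyte stood above their low colonic level (median log2 difference 1.27). Of 17 compared, 10 were more than 2-fold higher (58.8%, beside 5.03% over all genes) and 0 lower. Of all genes of 1 to 3 and 3 to 10 FPKM, 12.4% and 5.16% were higher. Npc1l1 and Mttp, given below, passed the minimum only through their level in Vil-Ogt KO. With a minimum of 5 FPKM the median of the list was 1.18 over 12 genes. Fabp6, the ileal bile acid carrier, was at 93.1 FPKM in Vil-Ogt KO and 11.6 FPKM in WT, and Slc10a2, the apical bile acid transporter, at 53.1 FPKM in Vil-Ogt KO and 20.7 FPKM in WT. Npc1l1, which takes up cholesterol, was at 3.36 FPKM in Vil-Ogt KO and 0.162 FPKM in WT, Sis, sucrase-isomaltase, at 11.8 FPKM in Vil-Ogt KO and 1.4 FPKM in WT, and Mttp, which loads lipid on apolipoprotein B, at 5.06 FPKM in Vil-Ogt KO and 0.651 FPKM in WT. The basolateral bile acid export pair Slc51a and Slc51b was at 104 FPKM in Vil-Ogt KO and 53.1 FPKM in WT and at 237 FPKM in Vil-Ogt KO and 95.7 FPKM in WT, with Nr1h4, the bile acid receptor FXR, at 89.9 FPKM in Vil-Ogt KO and 55.3 FPKM in WT. Of 43 regional and lineage transcription factors 4 were higher and 3 lower, close to the shares over all genes. Gata5 was at 7.67 FPKM in Vil-Ogt KO and 0.212 FPKM in WT, and Creb3l3, a membrane-bound factor of small intestine and liver, at 12.9 FPKM in Vil-Ogt KO and 1.26 FPKM in WT. Of the 11 Hox loci compared in that list 0 were more than 2-fold higher and 3 lower (6.58% lower over all genes). These were Hoxd13 at 2.39 FPKM in Vil-Ogt KO and 17.1 FPKM in WT, the locus of Hoxd10 at 0.224 FPKM in Vil-Ogt KO and 4.66 FPKM in WT and Hoxa13 at 5.94 FPKM in Vil-Ogt KO and 12.7 FPKM in WT. Hoxb13, the most abundant, was within 2-fold, at 100 FPKM in Vil-Ogt KO and 172 FPKM in WT. Cdx2, a factor of intestinal identity, differed by -0.31. Hox genes vary along the colon, the segment taken is not stated, and its part in these differences was not tested.

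A set of genes known from fetal and regenerating epithelium was mostly above WT (median log2 difference 0.88). Of 26 compared, 11 were more than 2-fold higher (42.3%, beside 5.03% over all genes) and 3 lower. Its highest member was Dlk1 of the imprinted run above (7.25). Plaur, the receptor of urokinase, was at 27.9 FPKM in Vil-Ogt KO and 1.49 FPKM in WT, and Clu, clusterin, at 16 FPKM in Vil-Ogt KO and 4.86 FPKM in WT. Annexins 1, 2, 3 and 8 were higher, Anxa8 at 88.6 FPKM in Vil-Ogt KO and 21.6 FPKM in WT and the abundant Anxa2, a cell surface partner of tissue plasminogen activator, at 1053 FPKM in Vil-Ogt KO and 484 FPKM in WT. Genes of structural and Eph lists, counted apart from this set, are given next, and a gene can belong to several lists. Of integrin, laminin and hemidesmosome genes 4 of 26 were higher (15.4%, beside 5.03% over all genes) and 0 lower. Lama3, a laminin chain of epithelial basement membranes, was at 11 FPKM in Vil-Ogt KO and 3.27 FPKM in WT. Itgav, an integrin chain, was at 18.9 FPKM in Vil-Ogt KO and 6.87 FPKM in WT. Of adherens junction, desmosome and keratin genes 3 of 29 were higher (10.3%, beside 5.03% over all genes) and 0 lower. Krt23, Krt36 and Krt15, keratins of stressed or other epithelia, had log2 differences of 1.72, 3.18 and 2.47. Cldn4, a claudin of tight junctions, was at 48.2 FPKM in Vil-Ogt KO and 15 FPKM in WT, while 31 of 33 tight junction genes were within 2-fold. Epha2, an Eph receptor kinase, was at 26 FPKM in Vil-Ogt KO and 7.01 FPKM in WT. Of 27 genes of Eph receptors, ephrins and semaphorins 2 were higher (7.41%) and 3 lower (11.1%). These shares were not far from the 5.03% and 6.58% over all genes. On the lower side of the fetal and regenerative set were Ctse, cathepsin E (11.6 FPKM in Vil-Ogt KO and 39.7 FPKM in WT), and Gja1, connexin 43 (1.88 FPKM in Vil-Ogt KO and 3.78 FPKM in WT). The Ly6a locus, at 269 FPKM in Vil-Ogt KO and 357 FPKM in WT, differed by less than 2-fold.

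Among antimicrobial and acute defence genes, 7 of 21 compared were more than 2-fold higher (33.3%, beside 5.03% over all genes) and 1 lower. Reg3b and Reg3g, C-type lectins of antibacterial defence, were at 1209 FPKM in Vil-Ogt KO and 208 FPKM in WT and at 576 FPKM in Vil-Ogt KO and 74.5 FPKM in WT. Duoxa2, which matures the peroxide-forming oxidase, was at 33.6 FPKM in Vil-Ogt KO and 9.78 FPKM in WT. Cytokines, chemokines and their receptors were counted as a separate list. Of 38 compared, 8 were higher (21.1%) and 6 lower (15.8%), beside 5.03% and 6.58% over all genes, with a median of -0.04. Il1b, interleukin 1 beta, was at 2.11 FPKM in Vil-Ogt KO and 0.0556 FPKM in WT, and Tnf at 2.39 FPKM in Vil-Ogt KO and 0.707 FPKM in WT, both close to the minimum level. Ccl25, which draws lymphocytes to the small intestine, was at 22.8 FPKM in Vil-Ogt KO and 5.94 FPKM in WT. Lower were Ccl5, a T cell chemokine (9.32 FPKM in Vil-Ogt KO and 29.9 FPKM in WT), Tnfsf10, a death ligand (2.46 FPKM in Vil-Ogt KO and 8.06 FPKM in WT), Il17re, the receptor of interleukin 17C (2.17 FPKM in Vil-Ogt KO and 13.1 FPKM in WT), and Il1r1 (3.18 FPKM in Vil-Ogt KO and 7.21 FPKM in WT). Acute phase Saa1, the 1 lower member of the defence list, was at 288 FPKM in Vil-Ogt KO and 596 FPKM in WT. Pigr, which carries IgA into the lumen, was among the largest losses by FPKM, at 910 FPKM in Vil-Ogt KO and 1698 FPKM in WT. Of the inflammasome genes, Nlrp6 was at 48.2 FPKM in Vil-Ogt KO and 87.4 FPKM in WT and Il18 at 82.1 FPKM in Vil-Ogt KO and 120 FPKM in WT, and most of that list (23 of 26) stayed within 2-fold. Il1b and the neutrophil genes S100a8 and S100a9 were higher in the same genotype, and whether they come from neutrophils was not tested.

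Stress programmes differed in a few members each. Of 31 p53 targets 7 were more than 2-fold higher and 0 lower (median 0.38). The share higher was 22.6%, beside 5.03% over all genes, and 12.4% and 5.16% over genes of 1 to 3 and 3 to 10 FPKM. Phlda3, an inhibitor of AKT, was at 8.82 FPKM in Vil-Ogt KO and 0.841 FPKM in WT. Eda2r was at 2.22 FPKM in Vil-Ogt KO and 0.304 FPKM in WT, and Plk2 at 6.28 FPKM in Vil-Ogt KO and 1.61 FPKM in WT. The standard targets Cdkn1a and Mdm2 differed by 0.37 and 0.41. The integrated stress response had 4 of 35 higher (11.4%, beside 5.03% over all genes) and 0 lower (median 0.46). Chac1, a glutathione-degrading enzyme, was at 1.99 FPKM in Vil-Ogt KO and 0.248 FPKM in WT. Nupr1, a stress-induced chromatin protein, was at 142 FPKM in Vil-Ogt KO and 54.2 FPKM in WT. Asns and Ddit3 differed by 0.72 and 0.81. The ATF4 core TGATGNAAT lay in the promoters of 4 of 29 matched members (13.8%), Nupr1 among them, beside 1.08% of all genes. In the endoplasmic reticulum, Hspa5, the chaperone BiP, differed by 0.39, and Ern2, a sensor of secretory epithelia, was at 39.7 FPKM in Vil-Ogt KO and 18.1 FPKM in WT. Of 30 heat shock chaperones only Hspb1 was more than 2-fold apart (1.51 FPKM in Vil-Ogt KO and 0.742 FPKM in WT). The heat shock core GAANNTTC lay in promoters of 9 of 23 of them (39.1%), beside 9.04% of all genes. Immediate early genes had 4 of 27 higher (14.8%) and 1 lower, with Fosl1 at 2.2 FPKM in Vil-Ogt KO and 0.384 FPKM in WT and Egr1 at 3.39 FPKM in Vil-Ogt KO and 8.94 FPKM in WT. Hypoxia targets had 5 of 25 higher (20%) and 1 lower, with Ndrg1 at 142 FPKM in Vil-Ogt KO and 64 FPKM in WT and Adm at 4.32 FPKM in Vil-Ogt KO and 1.13 FPKM in WT. For these last 2 lists too, the shares over all genes were 5.03% higher and 6.58% lower.

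All but 2 of 56 cell cycle and replication genes were within 2-fold, yet their median was -0.39, and the 10 Mcm helicase subunits and relatives all lay below 0 (median -0.48). Mki67 was at 13.6 FPKM in Vil-Ogt KO and 26.5 FPKM in WT. The 79 cytosolic ribosomal protein loci summed to 73368 FPKM in Vil-Ogt KO and 94839 FPKM in WT, with a median of -0.42, and 4 of the 10 largest losses by FPKM, small RNAs left aside, were ribosomal protein loci. The first of these was Rplp1, at 1663 FPKM in Vil-Ogt KO and 3169 FPKM in WT, and the elongation factor Eef1a1 was also among the 10, at 2896 FPKM in Vil-Ogt KO and 4124 FPKM in WT. Ribosome biogenesis factors had a median of 0.30, with 0 lower and 5 of 57 higher (8.77%, close to the 5.03% over all genes), led by Rrp12 (7.06 FPKM in Vil-Ogt KO and 2.87 FPKM in WT). Oxidative phosphorylation subunits had a median of -0.23 over 84 genes with 2 lower, and of the tricarboxylic acid cycle the cytosolic malate dehydrogenase Mdh1 stood out at 39.7 FPKM in Vil-Ogt KO and 214 FPKM in WT. Mitochondrial ribosomal proteins had a median of 0.10 over 76 genes. FPKM values are shares of a library, so small shifts of many abundant genes are relative to the rest of the transcriptome.

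Of the conjugation enzymes 1 of 44 was higher and 10 were lower (22.7%, beside 6.58% over all genes), with Sult1a1, a phenol sulfotransferase, at 55.3 FPKM in Vil-Ogt KO and 399 FPKM in WT, and Sult1c2 at 15.5 FPKM in Vil-Ogt KO and 52.7 FPKM in WT. Gsta1, the glutathione transferase that was higher, was at 38.6 FPKM in Vil-Ogt KO and 10.8 FPKM in WT. The cytochromes P450 Cyp2f2, Cyp2w1 and the locus of Cyp2c67 were lower, with differences of -3.16, -3.28 and -2.18, whereas Cyp4f14, a leukotriene hydroxylase family member, was at 179 FPKM in Vil-Ogt KO and 76.1 FPKM in WT and the abundant Cyp2c55 differed by -0.37. In retinoid metabolism Aldh1a1, which makes retinoic acid, was at 322 FPKM in Vil-Ogt KO and 141 FPKM in WT, and Adh1, an alcohol dehydrogenase, at 193 FPKM in Vil-Ogt KO and 560 FPKM in WT. Of 53 nutrient transporters 6 were higher (11.3%) and 10 lower (18.9%), beside 5.03% and 6.58% over all genes. Slc7a9 and Slc3a1, the light and heavy subunits of the cystine transporter, were at 34.1 FPKM in Vil-Ogt KO and 3.2 FPKM in WT and at 29 FPKM in Vil-Ogt KO and 12.7 FPKM in WT. Slc16a1 and Slc5a8, which take up butyrate, the colonocyte fuel, were at 85 FPKM in Vil-Ogt KO and 179 FPKM in WT and at 47.2 FPKM in Vil-Ogt KO and 141 FPKM in WT. Ion transport had Best2, a bicarbonate channel of goblet cells, at 21.3 FPKM in Vil-Ogt KO and 5.82 FPKM in WT and Fxyd4, a regulator of the sodium pump, at 6.68 FPKM in Vil-Ogt KO and 44.9 FPKM in WT. Lipid synthesis had 6 of 36 higher (16.7%, beside 5.03% over all genes) and 1 lower. Among the higher were Dgat2 at 62.2 FPKM in Vil-Ogt KO and 27.3 FPKM in WT and Scd1 at 27.5 FPKM in Vil-Ogt KO and 11.8 FPKM in WT. Nucleotide synthesis had 1 of 37 higher and 4 lower (2.70% and 10.8%, not far from the 5.03% and 6.58% over all genes), with the purine enzyme Paics at 23.9 FPKM in Vil-Ogt KO and 53.4 FPKM in WT. Cholesterol synthesis stood near WT (2 of 34 higher, 1 lower, median 0.26). Its sterol response core TCACNCCAC was found in 1 of 24 matched promoters (4.17%, beside 1.44% of all genes). That promoter belongs to Hmgcs1, at 129 FPKM in Vil-Ogt KO and 105 FPKM in WT.

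**Figure D4:**
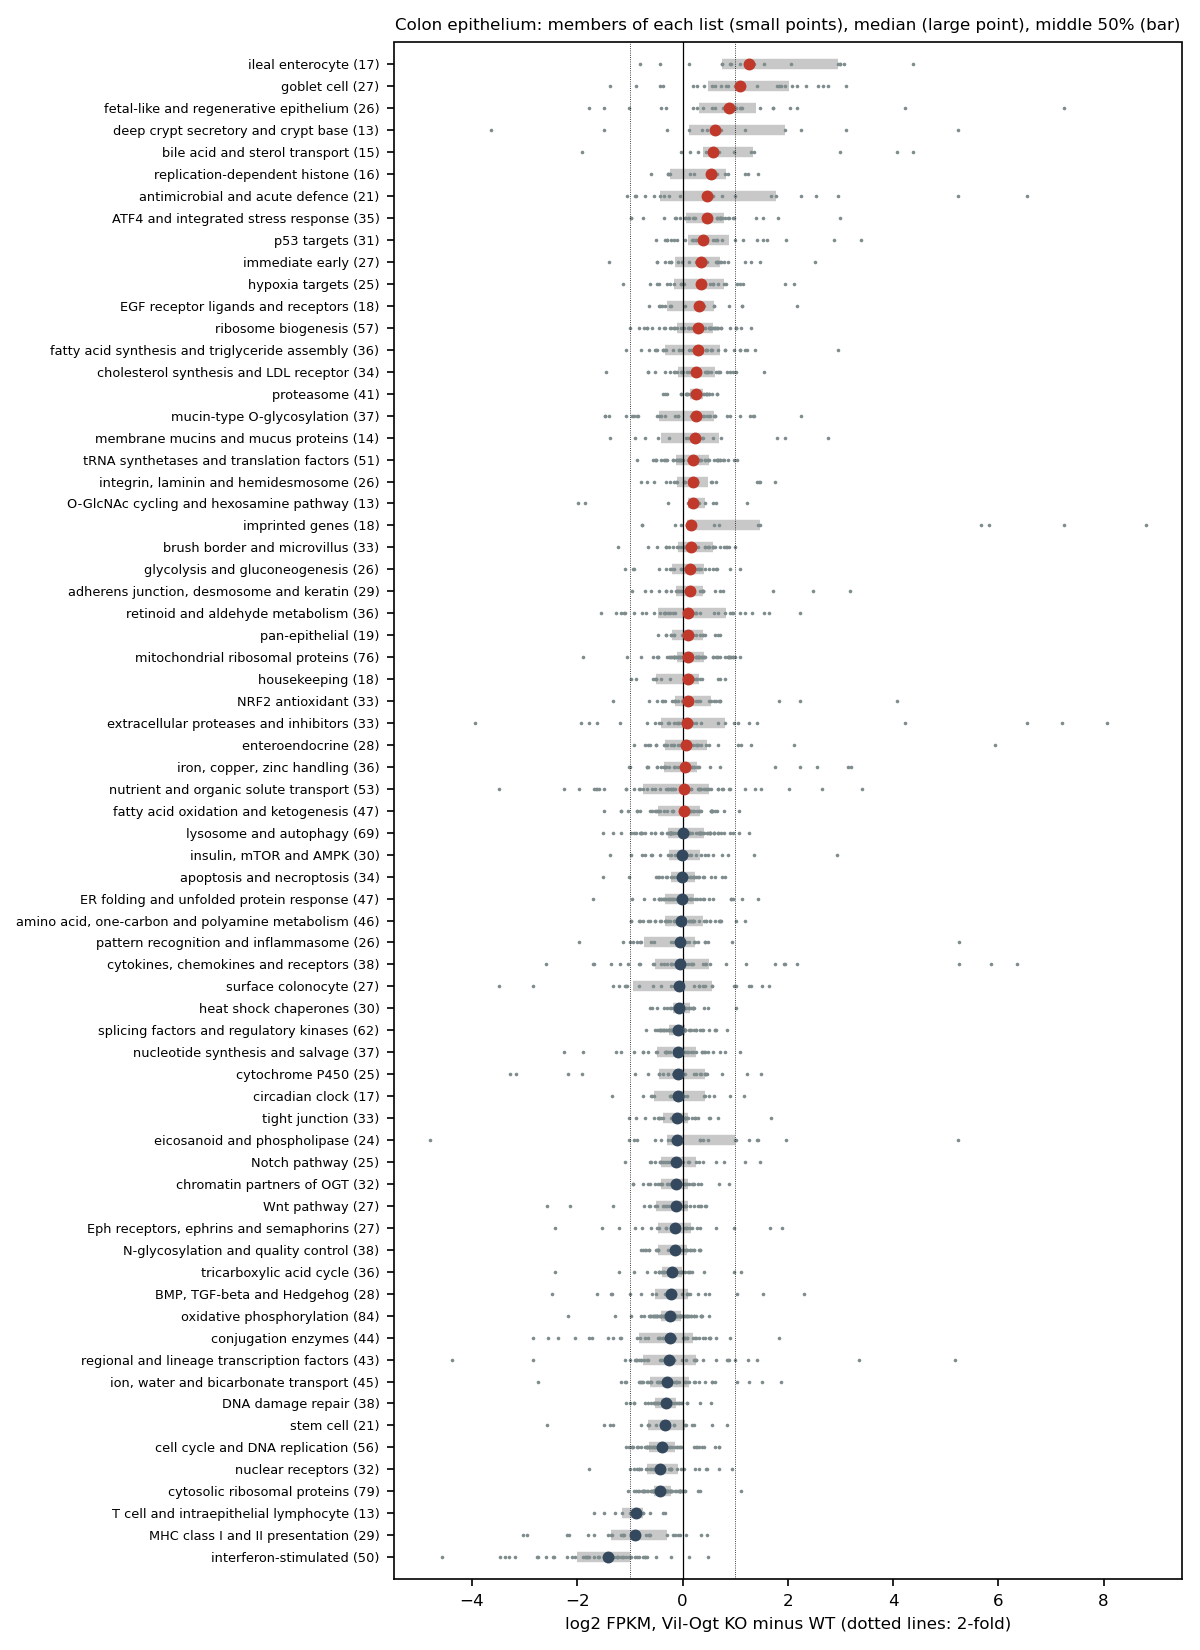
Each row is 1 list with at least 10 compared genes (their number in brackets), each small point the log2 difference (Vil-Ogt KO minus WT) of 1 gene, the bar the middle 50% and the large point the median. Medians run between 1.27 (ileal enterocyte) and -1.42 (interferon-stimulated), and most rows are centred close to 0.

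Of 69 lists with at least 10 compared genes, 9 had a median beyond 0.5 on either side, namely the 6 uppermost and the 3 lowest in the plot of lists. Lists with no gene more than 2-fold apart among these 69 were the housekeeping, pan-epithelial, N-glycosylation, OGT chromatin partner, splicing factor and proteasome genes. Families defined only by the letters of the gene symbol, 125 with at least 10 compared genes, were ranked by their median. Uppermost were Hist (median 0.80, 17 of 18 above 0), Anxa (0.74), Krt (0.71), Galnt (0.45), Gtf (0.38) and Dusp (0.31), and lowest were Parp (-0.51), Mcm (-0.48), Irf (-0.47), Hdac (-0.45), Sema (-0.41) and Rpl (-0.41). The list of replication-dependent histones, whose mRNAs lack poly(A) tails, had a median of 0.55, but of -0.23 over its members at 5 FPKM and more. Gene pairs that share sequence, such as histones and metallothioneins, may share reads.

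The ileum table offers the same genotypes in a neighbouring tissue, normalized apart. More genes lay past 2-fold there, 12.3% higher and 13.5% lower of 11009 compared. The ileum values rest on 3 Vil-Ogt KO and 2 WT libraries, and the part of the smaller WT group in this was not tested. Of 10405 genes compared in both tables, 258 were more than 2-fold higher in both and 357 lower in both, which is 59.3% of the 435 higher and 62.3% of the 573 lower in the colon, and 23.6% and 25.6% of those in the ileum. On opposite sides were 24 genes higher in the colon and lower in the ileum and 33 the other way round. Goblet cell genes had a median of 1.10 in the colon and -0.66 in the ileum, and interferon-stimulated genes -1.42 and 0.27. T cell and intraepithelial lymphocyte genes had -0.89 in the colon and 2.32 in the ileum, and MHC presentation genes -0.91 and -0.03. Ileal enterocyte genes were above 0 in both, at 1.27 and 3.43. Spink4 and Slpi had differences of 3.10 and 6.55 in the colon and of -0.64 and -2.27 in the ileum, whereas Plat (5.52), Mt1 (3.74) and S100a8 (5.95) were higher in the ileum also. The difference between tissues was not tested, since no value has a replicate.

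**Figure D5:**
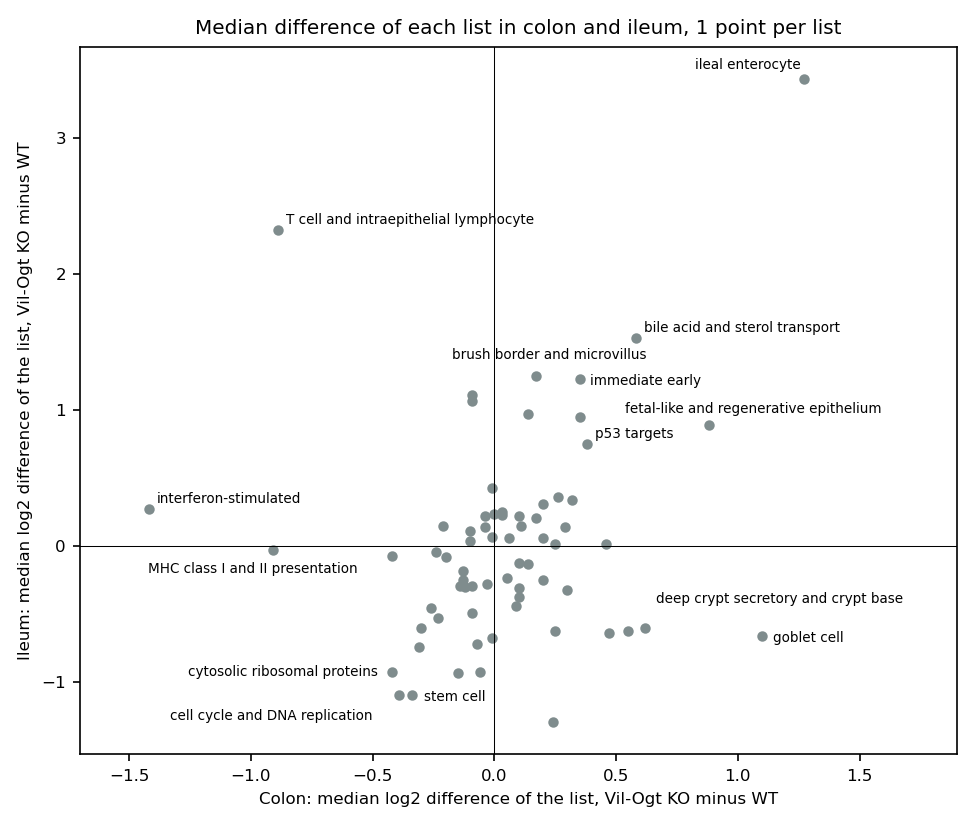
Each point is 1 list with at least 10 compared genes in both tables, with its median log2 difference (Vil-Ogt KO minus WT) in the colon across and in the ileum upwards. The goblet list (1.10 and -0.66) and the T cell list (-0.89 and 2.32) lie in opposite corners, and the ileal enterocyte list (1.27 and 3.43) is high in both.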

How the data were processed

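Libraries were sequenced by the authors, and the submitters' processing notes name TopHat 1.0.0, Bowtie and Cufflinks with the mm10 build. Whether the counting used strand is not given in the sources used here. For each tissue the authors deposited a table of loci with 1 log2 FPKM value per genotype, in which -10 stands for 0 FPKM. The same tables hold the authors' own comparison (a log2 ratio, a q-value and a significance mark), and these columns were not used. The 2 tables were normalized separately, so only differences within a table were set side by side. Because no value per library was used, there is no SD, no depth and no p-value, and the planned design holds no test.

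Loci without a gene name were left out (4815 of 18122), and where several loci had 1 name, only that of the largest mean FPKM entered. Genes were compared at a mean of at least 1 FPKM, and those listed at 0 were kept apart. A gene was counted as apart when the genotypes differed by more than 2-fold. Loci that carry several gene names (367) may mix the reads of neighbours or paralogs. The members and the 80 gene lists were chosen with earlier results of these data known. Genes named are the 15 highest and the 15 lowest log2 differences, the 10 largest FPKM differences a side, and in each list up to 6 members far from WT plus those that define it, with numbered gene models and small RNAs left out. Genes named only for their place in a run of neighbours, and a few others outside this rule, were chosen after their values were seen. Promoters and microRNAs came from RefSeq (GRCm38.p6). The counting was tested on simulated data. Python 3.11.15, NumPy 2.4.6, pandas 2.3.3 and matplotlib 3.10.9 were used. Alternatives were the filter on level, the fold, a pseudocount, centring, summed loci and, chosen after seeing the data, leaving out loci with several names. A few genes that the naming rule covers are not reported here.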

Additional observations from a re-analysis of the deposited data

How the results depend on the processing

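The counts of genes more than 2-fold apart in Vil-Ogt KO colon (571 higher, 747 lower) moved most with the threshold. They were 1295 higher and 1875 lower at 1.5-fold, and 174 higher and 160 lower at 4-fold. With a minimum of 5 FPKM they were 280 higher and 355 lower, and with no filter on level 913 were higher. With 1 added to each FPKM 489 were lower. Listed genes that were higher numbered 171, and 111 with a minimum of 5 FPKM. Centring on the median, summing loci that share a name, adding 0.1 FPKM, and leaving out loci with several names, an alternative chosen after seeing the data, kept both counts within 1.5 times. Of the 9 lists with at least 10 compared genes and a median beyond 0.5, the side of 0 was kept by 9 with 1 added to each FPKM, with centring and with no filter, and by 8 at 5 FPKM, the exception being the replication-dependent histones (0.55, and -0.23 at 5 FPKM). Medians still beyond 0.5 were fewer, 7 with 1 added to each FPKM and 8 with no filter and at 5 FPKM, but 9 with centring. The median of the tuft cell list was 1.01 over 3 genes, and -0.87 over 13 genes with no filter. Among 2174 named and listed genes, a change of sign was counted only for those more than 2-fold apart. Summed loci gave 0 such changes. Adding 1 to both values, or centring on a median of -0.05, cannot turn the sign of such a gene. With 1 added, with centring and with summed loci, 62, 12 and 2 genes were no longer more than 2-fold apart. No paired analysis was possible because each genotype has 1 deposited value per gene, and for the same reason no library could be left out. The spread between libraries, and with it the reliability of any single gene, is unknown.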
